A study of Bos taurus with 6 samples.

Results

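The genes described here encode proteins of the centrosome and of the machinery that nucleates spindle microtubules. They are the table rows whose symbol is CEP followed by a digit, begins with HAUS or TUBGCP, or is PCM1, PCNT, CDK5RAP2, NEDD1, CKAP5, TACC3, NUMA1 or ASPM. This rule uses names only and took 52 of the 20707 rows: 31 CEP rows, 8 HAUS rows, 5 TUBGCP rows and 8 rows of the single symbols. They carry 50 symbols, because CEP19 and CEP128 each stand on 2 rows.

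In most animal cells a pair of centrioles surrounded by pericentriolar material forms the centrosome and organises the spindle poles. Mammalian oocytes lose their centrioles while they grow, and the meiotic spindle assembles without them. In cattle the fertilising sperm brings a centriole back, which then recruits proteins stored in the egg cytoplasm. Microtubules are nucleated by the gamma-tubulin ring, which is built from gamma-tubulin and the TUBGCP proteins. Augmin, the complex of the HAUS proteins, brings that ring to the sides of existing microtubules so that new ones branch off.

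The study measured mRNA in individual bovine (Bos taurus) oocytes aspirated from abattoir ovaries. GV (germinal vesicle) oocytes were collected at aspiration, still arrested in meiotic prophase, and MII oocytes had been matured for 24 hours in vitro and stand at metaphase of the second meiotic division. No genotype, treatment or animal age other than the maturation itself is given in the labels. Another label field calls every sample matured in vitro, so stage was taken from the title and the stage field. The table has 3 GV libraries, named GV14, GV14c and GV15, and 3 MII libraries, named MII14c, MII15 and MII15c. The names GV14c and MII15c match no sample title, so they were used by their stage only. Nothing in the labels says whether libraries come from different animals, or whether a name with c repeats an oocyte, so n counts libraries and p-values measure only the spread between them.

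Values are RPKM, which scale the reads of a gene by its model's length and by library size. Each is a share of its library, so less of an mRNA per oocyte and more of other RNA cannot be told apart. Because cDNA was primed on poly(A) tails, transcript number and tail length cannot be told apart either. Recovered depths were 20.14 to 29.85 M reads in GV and 21.19 to 32.48 M in MII, at which 1 RPKM is 40.28 to 64.96 reads for a 2 kb model. At 1 RPKM or more, 8401 to 9304 genes were detected in GV and 7170 to 8087 in MII. All 14 oocyte markers reached 1 RPKM in every GV library and 13 did in every MII library. Their summed level was 7583 to 10723 RPKM in GV and 3499 to 4421 RPKM in MII. Of the 14 cumulus and granulosa cell markers in the table, 9 were under 1 RPKM in all libraries and LHCGR, AMHR2 and PTX3 were listed at 0. Their sum was 83.8 to 156.4 RPKM in GV and 95.4 to 98.5 RPKM in MII, and only HAS2 and STAR reached 1 RPKM in every library. HAS2, which makes hyaluronan, rose from 16.3 ± 4.06 to 59.5 ± 4.84 RPKM, and STAR, a steroidogenic cholesterol carrier, fell from 101.2 ± 34.2 to 35.4 ± 5.46 RPKM (limma adjusted p = 0.000685 and 0.00395; 0.0556 for STAR without both untitled columns). The part of cumulus RNA in the centrosomal results was not tested. Of the 7 stroma, blood and immune markers, 6 were under 1 RPKM in all libraries, COL3A1 and HBB were listed at 0, and the sum was at most 2.23 RPKM. Among 3 genes set as checks, CCNB1 (cyclin B1, 3 rows share the symbol) rose from 592.0 ± 77.4 to 1418 ± 159 RPKM and GDF9 (an oocyte growth factor) fell from 551.1 ± 75.9 to 159.8 ± 39.7 RPKM (SD, n = 3; limma adjusted p = 0.00145 and 0.000504). The third, BMP15, stood at 792.0 ± 67.1 and 1060 ± 328 RPKM (adjusted p = 0.245).

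The centrosomal genes moved in both directions between the stages, unevenly over the role groups. Messages grouped under centriole assembly and duplication were mostly higher in MII. Those of augmin, of the gamma-tubulin ring and of appendages and cilia were mixed. Of the 44 rows with a mean of at least 1 RPKM, 15 were higher in MII (34.1%) and 8 lower (18.2%) in limma's moderated test with an adjusted p under 0.05, and 21 did not pass. Among all 8671 genes tested, 13.4% were higher and 26.9% lower. The median log2 change, MII minus GV on log2(RPKM + 1), was 0.28 for these rows and -0.16 for all tested genes. The stages did not overlap in 19 rows with MII higher and 10 with MII lower, which is 43.2% and 22.7% of the 44, against 19.8% and 32.1% of all tested genes. All 23 called rows were among these 29. At least 2-fold changes on the log scale made up 10 of the 15 higher and 6 of the 8 lower calls. Over all tested genes they made up 687 of the 1162 higher and 2137 of the 2329 lower calls.

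**Figure D1:**
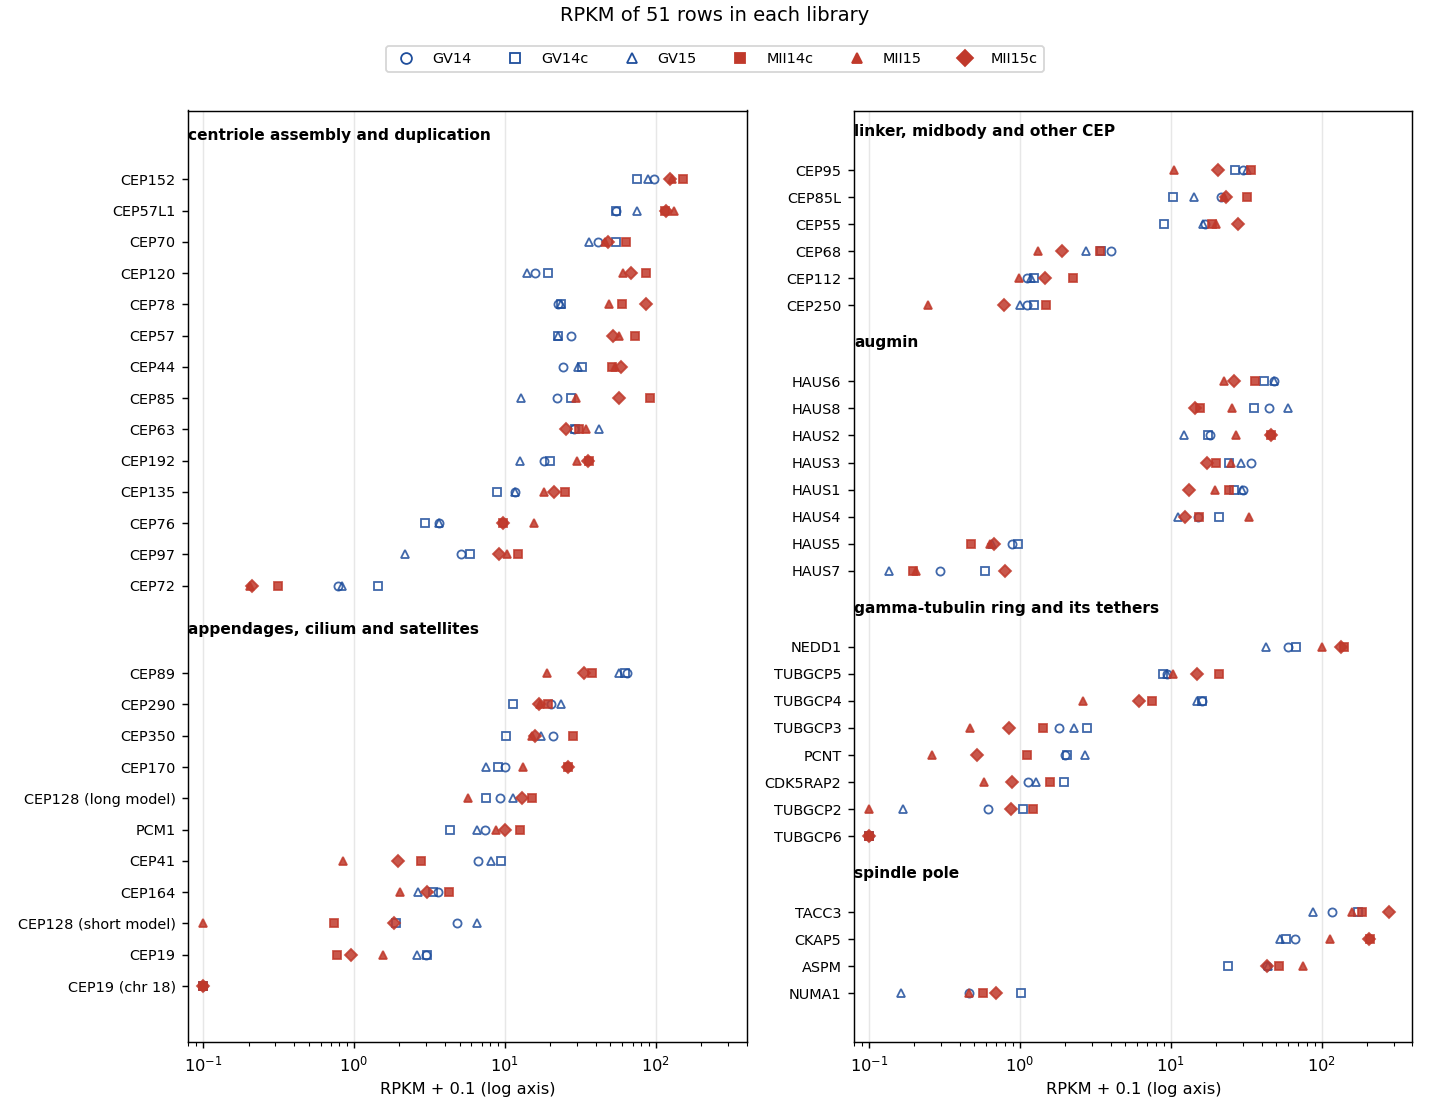
RPKM plus 0.1 of 51 of the 52 rows on a log axis, with 1 point per library, open blue for GV and filled red for MII, grouped by role. In the centriole assembly group the red points of 11 rows lie to the right of all blue points, and those of CEP72 to the left. Of all tested genes, 19.8% had every MII library above every GV library. The appendage, augmin and gamma-tubulin ring groups have rows wholly on either side.

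The median level of the 44 rows was at most 18.1 RPKM in any GV library and at least 18.9 RPKM in any MII library. The median over all tested genes went the other way, from 7.56 to 9.32 RPKM in GV to 5.24 to 7.67 RPKM in MII. Summed over the 52 rows, the level was 1034 to 1107 RPKM in GV and 1415 to 1823 RPKM in MII, so the stages did not overlap. The number of the 52 rows that reached 1 RPKM was 44 to 46 in GV libraries and 38 to 44 in MII libraries. The split of calls moved with scaling. Lower calls were 34.8% of the calls among these rows as deposited, 20.8% after median-ratio scaling (19 higher, 5 lower), 16.7% after quantile normalization (20 and 4) and 27.3% after TPM scaling (16 and 6). The median change of all genes shifted from -0.16 to 0.05, 0.22 and -0.07 under those scalings, and that of the 44 rows from 0.28 to 0.54, 0.73 and 0.42. All 15 higher calls were kept under the 3 scalings, and 3 of the 8 lower ones.

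Single libraries also decided part of these counts. Without MII15c 8 rows were called higher, and without MII15c, GV14, GV15 or MII15 the lower calls numbered 5, 3, 4 and 5. Without both columns that match no title, 6 were higher and 2 lower. That setting ended 9 higher calls (CEP135, CEP152, CEP192, CEP44, CEP57L1, CEP85, CEP97, CEP170 and HAUS2) and 6 lower ones (CEP41, CEP89, CEP19, HAUS6, TUBGCP4 and PCNT), with adjusted p from 0.0587 to 0.202. Testing every row of the table without a filter ended 5 higher calls (CEP85, CEP97, CEP152, CEP170 and HAUS2) and 7 of the 8 lower ones, all but CEP41, with adjusted p from 0.0509 to 0.184. None of the 23 called rows changed direction under the 3 scalings. Because their stages do not overlap, their direction is fixed in advance in any subset of the libraries, so subsets give sizes only. Within the number 14, the number 15, names with c and names without c, the median log2 change of the 15 higher rows was 1.31, 1.41, 1.33 and 0.95, and that of the 8 lower rows -1.13, -1.55, -0.98 and -1.56. The adapter dilution was 1 in 30 for GV14, 1 in 10 for GV15 and 1 in 50 for both MII14c and MII15, so among titled columns dilution and stage cannot be told apart.

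**Figure D2:**
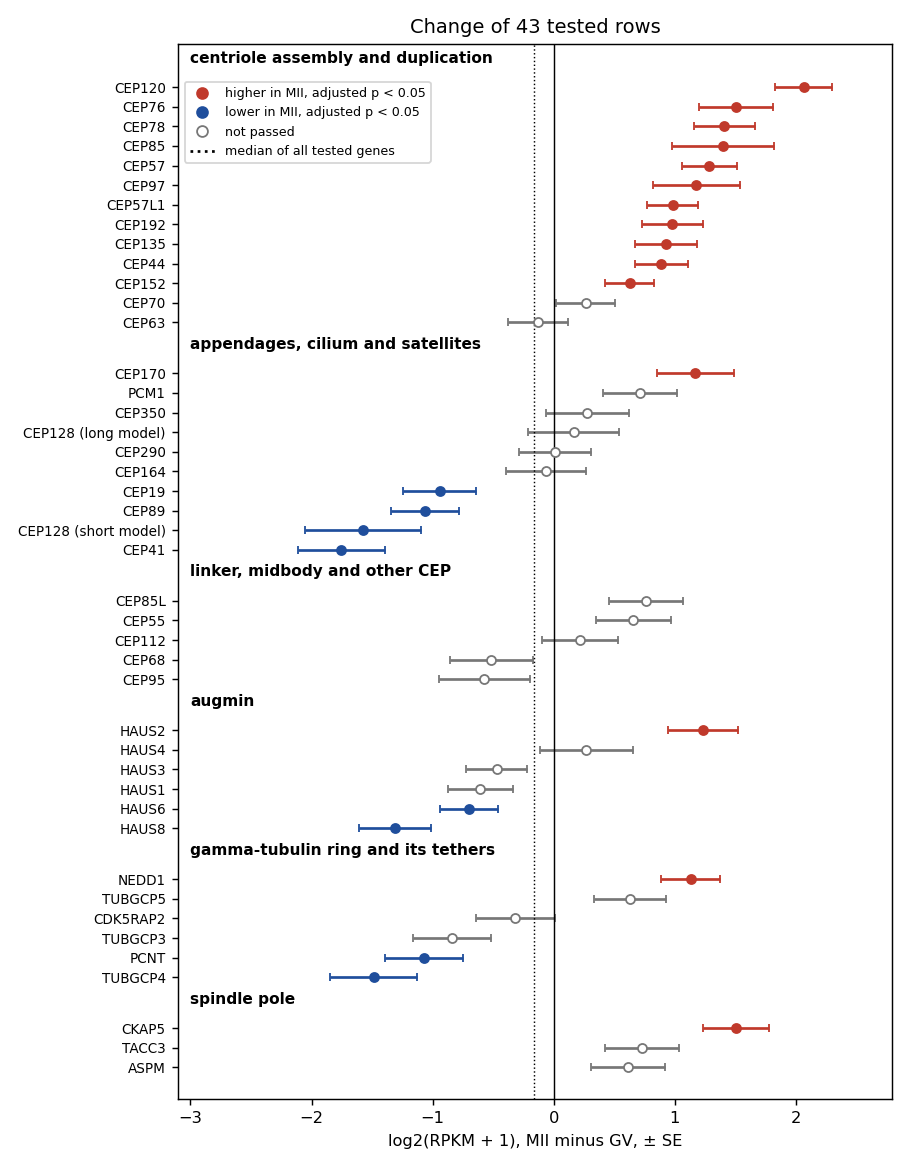
Log2 change from GV to MII with its standard error for 43 of the 44 tested rows, grouped by role and coloured by the call. The dotted line is the median of all tested genes at -0.16; 11 of the 13 centriole assembly rows are called higher and none lower.

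Centriole assembly and duplication. Of 14 rows placed in this group, 13 were tested, 11 were higher in MII and none was lower, with a median log2 change of 0.98. The higher share of 84.6% stands beside 13.4% for all tested genes, of which 26.9% were lower. Most tested rows of the group have at least 1749 coding bases. Of all tested genes that long, 17.7% were higher and 11.8% lower. Roles were assigned with earlier results of these data known. The group is broad: CEP78, CEP57, CEP57L1, CEP70 and CEP72 are described below by where they lie or what they bind. Its counts depend on placing them here. CEP120, which drives centriole elongation, had the largest rise of all the rows. CEP76, which limits centriole reduplication, and CEP78, a protein of mature centrioles, followed. CEP152, the scaffold that brings the kinase PLK4 to the centriole, was the most abundant of the group.

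CEP120 (chromosome 7, 31672665 to 31774451 in the authors' annotation, whose build is not given in the sources used here; 20 coding exons) stood at 15.8, 19.1 and 13.9 RPKM in GV14, GV14c and GV15 and at 85.9, 60.7 and 67.9 RPKM in MII14c, MII15 and MII15c. The lowest MII library was above 3 times the highest GV library. The mean rose from 16.3 ± 2.65 to 71.5 ± 13.0 RPKM (SD, n = 3), a log2 difference of 2.07 ± 0.24 (SE; limma adjusted p = 0.000276). CEP76 (chromosome 24, 43498673 to 43515274; 12 coding exons) was much lower, at 3.58, 2.84 and 3.54 RPKM in GV and 9.57, 15.5 and 9.56 RPKM in MII. Its stages were well apart too, with MII15 the highest library, and the log2 change was 1.51 ± 0.31 (limma adjusted p = 0.00454). CEP78 (chromosome 8, 54433665 to 54468654; 16 coding exons) had nearly the same level in the 3 GV libraries, 22.4, 23.3 and 23.5 RPKM, and 59.6, 48.7 and 85.6 RPKM in MII. All MII libraries were above all GV libraries, and the log2 change was 1.41 ± 0.25 (limma adjusted p = 0.00252). These 3 calls held under all 17 alternatives.

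CEP152 (chromosome 10, 61650117 to 61767933; 27 coding exons) stood at 97.1, 74.4 and 88.3 RPKM in GV and 150.1, 127.6 and 124.4 RPKM in MII. The stages did not overlap, but the rise from 86.6 ± 11.4 to 134.1 ± 14.03 RPKM was the smallest of the 11 (log2 difference 0.63 ± 0.20, SE; limma adjusted p = 0.035). That call was lost under 8 alternatives, among them the fit with no mean-variance trend (adjusted p = 0.0759), with adjusted p = 0.0541, 0.0886, 0.0828, 0.1 and 0.0823 without GV14, GV14c, GV15, MII14c or MII15c. CEP63, its partner at the centriole, was at 33.4 ± 7.64 and 30.1 ± 4.42 RPKM and missed the threshold (adjusted p = 0.704). The sign of its log2 change, -0.13, turned under each of the 3 scalings.

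CEP57 and its paralog CEP57L1, pericentriolar proteins that bind the CEP63 and CEP152 pair, both rose. CEP57 went from 24.0 ± 2.79 to 60.4 ± 10.99 RPKM (log2 difference 1.29 ± 0.23; limma adjusted p = 0.00243) and held under all alternatives. It overlaps a gene on the other strand over 220 bases, and whether counting used strand is not given in the sources used here. CEP57L1 went from 61.0 ± 11.6 to 120.5 ± 9.10 RPKM (log2 difference 0.98 ± 0.21; limma adjusted p = 0.00618). CEP192, which recruits PLK4 and pericentriolar material, rose from 16.8 ± 3.77 to 33.6 ± 3.39 RPKM (limma adjusted p = 0.0136). CEP44, needed to turn a new centriole into a centrosome, rose from 29.1 ± 4.37 to 54.4 ± 3.65 RPKM (limma adjusted p = 0.0109). The call for CEP57L1 was lost only without both untitled columns (adjusted p = 0.0663). That for CEP192 was also lost without GV15 or MII15c (0.054 and 0.0597), and that for CEP44 without MII15c (0.0548).

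CEP135, which ties the cartwheel to the centriole's microtubules, rose from 10.7 ± 1.64 to 21.2 ± 3.47 RPKM (log2 difference 0.93 ± 0.26; limma adjusted p = 0.0188). CEP97, which caps the growing end together with CCP110, rose from 4.30 ± 1.97 to 10.4 ± 1.56 RPKM (log2 difference 1.18 ± 0.36; limma adjusted p = 0.0285). CEP85, a partner of the assembly factor STIL, had the widest spread: 21.9, 27.5 and 12.6 RPKM in GV and 91.2, 29.4 and 57.0 RPKM in MII. Its MII15 value was just above the highest GV value, and the log2 change was 1.40 ± 0.42 (limma adjusted p = 0.0269). These 3 calls each depended on single libraries. Adjusted p for CEP135 was 0.0524, 0.0596 and 0.0665 without GV14c, MII14c or MII15c. Without GV14, GV15, MII14c or MII15c it was 0.0536, 0.0922, 0.079 and 0.066 for CEP97 and 0.0603, 0.0861, 0.0837 and 0.0847 for CEP85. CEP70, which binds gamma-tubulin, was at 43.7 ± 9.36 and 52.6 ± 9.59 RPKM and missed the threshold (adjusted p = 0.414).

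The group's count rests in part on the libraries as well. It was 11 under each of the 3 scalings and without MII15, and 8, 9, 7, 7 and 5 without GV14, GV14c, GV15, MII14c or MII15c. Without both untitled columns it was 4. With no filter, which admits CEP72, 14 rows were tested, 8 were higher and 1 was lower. CEP72, a protein of the pericentriolar region, was too low to be tested with the filter, at 0.687, 1.34 and 0.729 RPKM in GV and 0.215, 0.105 and 0.11 RPKM in MII. It was the only one of the 14 rows with every MII library under every GV library.

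Appendages, cilium and satellites. Of 12 rows for the appendages of the older centriole, for cilia or for the satellites around the centrosome, 11 were tested, 4 were lower in MII and 1 was higher. The median log2 change was 0.01. The higher and lower shares of 9.1% and 36.4% stand beside 13.4% and 26.9% for all tested genes. After quantile normalization 2 rows were lower and 2 higher. The 4 lower rows were CEP41, which supports glutamylation of ciliary tubulin, the short model of CEP128, the distal appendage gene CEP89, and CEP19, which acts early in cilium formation. The higher one was CEP170, a microtubule-binding protein of the subdistal appendages. It was moved here from the group of linker, midbody and other CEP genes after values were seen.

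CEP41 (chromosome 4, 94958649 to 95006794; 11 coding exons) was at 6.54, 9.36 and 7.98 RPKM in GV and 2.69, 0.74 and 1.85 RPKM in MII. The highest MII library was well under the lowest GV library, and the mean fell from 7.96 ± 1.41 to 1.76 ± 0.98 RPKM (log2 difference -1.75 ± 0.36, SE; limma adjusted p = 0.00485). Among the 16 alternatives that tested CEP41, only leaving out both untitled columns ended the call (0.0587). With a mean of at least 5 RPKM it was not tested. CEP89 (chromosome 18, 43486130 to 43568397; 19 coding exons) was the most abundant row of the group, at 64.5, 62.2 and 57.0 RPKM in GV and 37.7, 18.8 and 33.2 RPKM in MII. Its GV libraries lay close together and above all MII libraries, with a log2 change of -1.07 ± 0.28 (limma adjusted p = 0.015; 0.0543 without GV14). It overlaps a gene on the other strand over 47 bases.

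CEP19 on chromosome 1 was at 2.91, 2.94 and 2.50 RPKM in GV and 0.672, 1.45 and 0.857 RPKM in MII. The stages did not overlap, and the log2 change was -0.94 ± 0.30 (limma adjusted p = 0.034). This was among the least stable calls, lost under 10 alternatives that include median-ratio, quantile and TPM scaling (0.0826, 0.31 and 0.0555). It was also lost without GV14, GV14c, GV15, MII14c or MII15c (0.0998, 0.0723, 0.0587, 0.102 and 0.113). A second row with the symbol, on chromosome 18 with 3 coding exons, was listed at 0 in all 6 libraries.

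CEP128, a subdistal appendage protein, is split over 2 gene models on the minus strand of chromosome 10. The long model (93172488 to 93390368; 18 coding exons, 2628 coding bases) was at 9.20, 7.36 and 11.2 RPKM in GV and 15.1, 5.56 and 12.9 RPKM in MII. The short model (92904390 to 93009573; 6 coding exons, 483 coding bases) lies downstream of it and was at 4.75, 1.79 and 6.39 RPKM in GV and 0.636, 0 and 1.75 RPKM in MII. The long model overlapped between stages and missed the threshold (log2 difference 0.17 ± 0.38; limma adjusted p = 0.752), whereas the short one was lower in MII (-1.57 ± 0.48; limma adjusted p = 0.0286). On log2(RPKM + 1), the short model minus the long one averaged -1.04 in GV and -2.78 in MII. An exact permutation test of that difference, two-sided, gave p = 0.1, the smallest that 3 against 3 allows. RefSeq's cattle gene table lists 1 gene of this name. The short model's call was lost without GV14, GV15, MII14c or MII15 (adjusted p = 0.0919, 0.0849, 0.066 and 0.0739) and after quantile normalization (0.103), and with a pseudocount of 0.1 (0.0548).

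CEP170 (chromosome 16, 34656580 to 34785822; 25 coding exons) was at 9.97, 8.85 and 7.39 RPKM in GV and 25.9, 13.2 and 26.1 RPKM in MII. All MII libraries were above all GV libraries, with MII15 well under the other 2, and the log2 change was 1.17 ± 0.32 (limma adjusted p = 0.0176). Without GV15, MII14c or MII15c the adjusted p was 0.0575, 0.0581 and 0.0814. PCM1, the scaffold of centriolar satellites, stood at 5.99 ± 1.597 and 10.4 ± 1.97 RPKM, with no overlap between stages, but did not pass (log2 difference 0.71 ± 0.30; limma adjusted p = 0.0908). CEP164, which docks the mother centriole at the membrane, was at 3.09 ± 0.487 and 3.01 ± 1.13 RPKM. CEP290, of the ciliary transition zone, was at 18.2 ± 6.25 and 17.7 ± 1.44 RPKM. CEP350 was at 16.01 ± 5.43 and 19.6 ± 7.25 RPKM. None of these 3 passed, with limma adjusted p = 0.896, 0.977 and 0.554. The group's lower calls numbered 1, 3, 2, 2, 3 and 3 without GV14, GV14c, GV15, MII14c, MII15 and MII15c in turn.

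Linker, midbody and other CEP genes. Of 6 rows in this mixed group 5 were tested and none passed, with a median log2 change of 0.22. CEP170, called higher, had been in this group and was moved to the appendage group after values were seen, so these counts depend on that move. CEP95 had the highest mean level, 29.9, 26.5 and 31.8 RPKM in GV and 33.9, 10.4 and 20.3 RPKM in MII. Its MII libraries lay on both sides of the GV libraries (log2 difference -0.57; limma adjusted p = 0.256). CEP55, which acts in abscission at the midbody, was at 13.97 ± 4.38 and 22.2 ± 5.10 RPKM, and CEP85L at 15.3 ± 5.72 and 25.9 ± 5.28 RPKM. For both, every MII library was above every GV library and the test was not passed (limma adjusted p = 0.12 and 0.0762). Of the proteins that link the centrioles, CEP68 was at 3.30 ± 0.616 and 2.11 ± 1.06 RPKM, and CEP250, not tested, at 1.02 ± 0.119 and 0.740 ± 0.620 RPKM. CEP112 was at 1.08 ± 0.0705 and 1.47 ± 0.648 RPKM.

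Augmin. The 8 augmin subunits are thought to work in one complex, but their messages changed unequally. HAUS2 rose, HAUS8 and HAUS6 fell, and HAUS1, HAUS3 and HAUS4 did not pass. HAUS5 and HAUS7 were too low to be tested. The 1 higher and 2 lower calls among 6 tested rows (16.7% and 33.3%) are near the 13.4% and 26.9% of all tested genes. The lower calls were 0 after median-ratio scaling, 1 after quantile or TPM scaling, 1 with the replicate block and 1 when GV14, GV14c, GV15, MII15 or MII15c was left out in turn. HAUS8 is the subunit that binds the microtubule, and HAUS6 the one that contacts NEDD1 and the ring.

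HAUS2 (chromosome 10, 37995372 to 38008615; 6 coding exons) was at 18.2, 17.6 and 12.2 RPKM in GV and 46.0, 26.9 and 46.0 RPKM in MII. The stages were apart, with MII15 the lowest MII library, and the mean rose from 16.004 ± 3.32 to 39.6 ± 11.03 RPKM (log2 difference 1.24 ± 0.29, SE; limma adjusted p = 0.00934). HAUS8 (chromosome 7, 5913699 to 5938826; 9 coding exons) was at 44.5, 35.3 and 60.2 RPKM in GV and 15.5, 25.4 and 14.3 RPKM in MII. Here MII15 was the highest MII library, still under every GV library, and the mean fell from 46.7 ± 12.6 to 18.4 ± 6.07 RPKM (log2 difference -1.31 ± 0.30; limma adjusted p = 0.00799). No single library ended these calls. HAUS8 lost its call after median-ratio scaling (adjusted p = 0.0569).

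HAUS6 (chromosome 8, 25150046 to 25191874; 18 coding exons) was at 48.1, 41.3 and 48.0 RPKM in GV and 35.9, 22.6 and 26.3 RPKM in MII. The stages did not overlap, but the log2 change of -0.70 ± 0.24 was only just past the threshold (limma adjusted p = 0.0443) and was lost under 12 of the 17 alternatives. These include median-ratio, quantile and TPM scaling (0.194, 0.119 and 0.113) and the fits without GV14, GV14c, GV15, MII15 or MII15c (0.127, 0.057, 0.121, 0.0902 and 0.134). It is also the only one of the 23 calls lost under the replicate block, with the library number as a term (0.0901). HAUS1 was at 28.5 ± 2.23 and 18.9 ± 5.55 RPKM with no overlap (limma adjusted p = 0.105), HAUS3 at 29.1 ± 4.90 and 20.7 ± 3.78 RPKM (0.16) and HAUS4 at 15.6 ± 4.84 and 20.1 ± 11.01 RPKM (0.609). HAUS5 was at 0.739 ± 0.166 and 0.496 ± 0.105 RPKM, and HAUS7 at 0.242 ± 0.232 and 0.300 ± 0.347 RPKM.

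The order of the subunits by mean RPKM was not the same in the 2 stages. RPKM divides by the length of the gene model, but whether reads spread evenly along each transcript was not tested. The order therefore describes RPKM values and not numbers of molecules. In GV the order was HAUS8, HAUS6, HAUS3, HAUS1, HAUS2, HAUS4, HAUS5 and HAUS7. HAUS8 overlapped HAUS6 in range there, HAUS3 overlapped HAUS1, and HAUS2 overlapped HAUS4. In MII HAUS2 came first and HAUS8 was the lowest of the 6 tested subunits. Each of those 6 overlapped its neighbour in MII, and HAUS5 and HAUS7 followed far below. The 6 means spanned 15.6 to 46.7 RPKM in GV and 18.4 to 39.6 RPKM in MII.

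**Figure D3:**
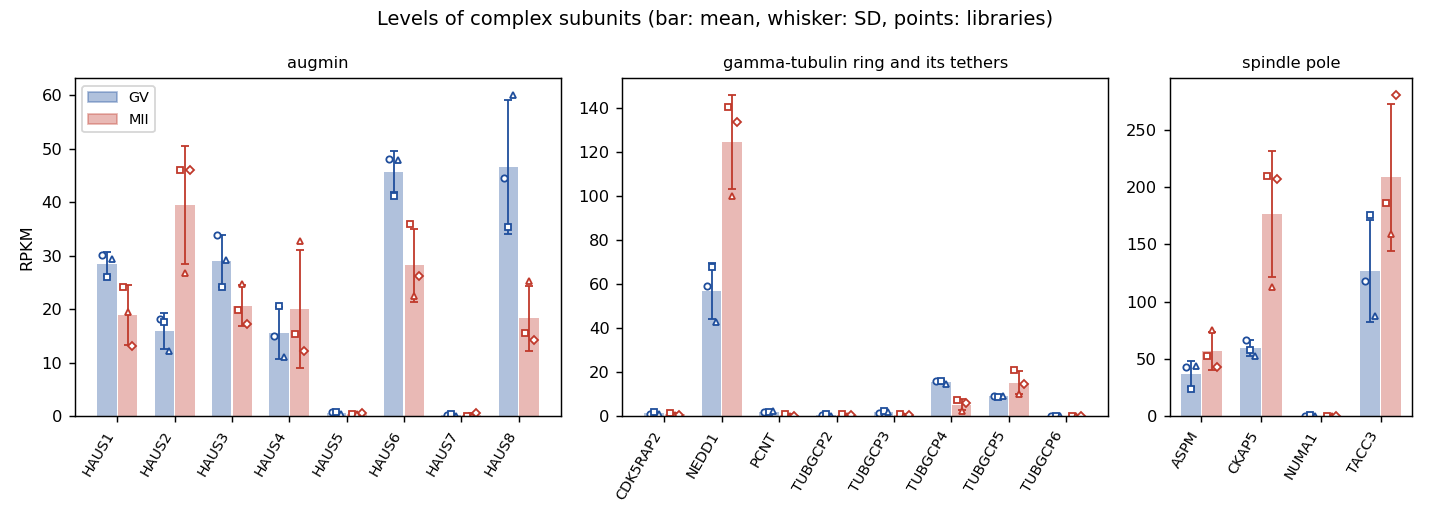
RPKM of the augmin subunits, of the gamma-tubulin ring genes with their tethers, and of the spindle pole genes; bars are means, whiskers SD and points the 3 libraries of each stage (GV blue, MII red). HAUS8 has the highest augmin mean in GV and HAUS2 in MII, each overlapping HAUS6 in range, and NEDD1 and CKAP5 stand higher in every MII library.

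Gamma-tubulin ring and its tethers. In this group 1 row was higher in MII (16.7%, beside 13.4% of all tested genes), 2 were lower (33.3%, beside 26.9%) and 3 did not pass. Lower calls were 1 after quantile normalization and without GV14, GV15, MII15 or MII15c, and 0 without both untitled columns, and higher calls were 2 after quantile normalization and without MII15. NEDD1, which brings the ring to augmin and to the poles, rose. TUBGCP4, a subunit found only in the full ring, and PCNT (pericentrin), which anchors rings in the pericentriolar material, fell. The other tested subunits, TUBGCP3 and TUBGCP5, lay on opposite sides of zero, each without overlap between stages and neither past the test.

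NEDD1 (chromosome 5, 61446535 to 61498781; 14 coding exons) was at 59.4, 68.0 and 42.9 RPKM in GV and 140.4, 100.2 and 133.5 RPKM in MII. Every MII library was above every GV library, and the mean rose from 56.8 ± 12.7 to 124.7 ± 21.5 RPKM (log2 difference 1.13 ± 0.24, SE; limma adjusted p = 0.00621), a call kept under all 17 alternatives. TUBGCP4 (chromosome 21, 55640209 to 55682800; 18 coding exons) was at 16.1, 16.1 and 14.7 RPKM in GV and 7.40, 2.51 and 6.10 RPKM in MII. Its GV libraries were nearly equal and far above MII, and the mean fell from 15.7 ± 0.794 to 5.34 ± 2.53 RPKM (log2 difference -1.49 ± 0.36; limma adjusted p = 0.0102). It overlaps a gene on the other strand over 46 bases. PCNT (chromosome 1, 147736411 to 147841326; 53 coding exons) was low throughout, at 1.90, 1.95 and 2.59 RPKM in GV and 1.01, 0.162 and 0.42 RPKM in MII. All MII libraries were under all GV libraries (log2 difference -1.07 ± 0.32; limma adjusted p = 0.0267). The call was lost after quantile normalization (adjusted p = 0.191) and without GV14, GV15, MII15 or MII15c (0.062, 0.0679, 0.0622 and 0.0923).

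TUBGCP5, another subunit of the full ring, was at 9.41, 8.82 and 9.37 RPKM in GV and 20.9, 10.3 and 14.9 RPKM in MII (log2 difference 0.63 ± 0.30; limma adjusted p = 0.124). TUBGCP3, which with TUBGCP2 forms the small gamma-tubulin complex, was at 2.202 ± 0.476 and 0.819 ± 0.486 RPKM (-0.84 ± 0.32; limma adjusted p = 0.0662). CDK5RAP2, a second tether and activator of the ring, was at 1.36 ± 0.433 and 0.923 ± 0.523 RPKM (limma adjusted p = 0.472), and the sign of its change turned after quantile normalization. TUBGCP2 ranged from 0.068 to 0.952 RPKM in GV and from 0 to 1.12 RPKM in MII and was not tested. TUBGCP6, with 25 coding exons in the annotation, was listed at 0 in all 6 libraries. In GV TUBGCP4 was above TUBGCP5 in every library, and in MII TUBGCP5 was above TUBGCP4 in every library. PCNT was just under TUBGCP3 in GV and the lowest detected gene of the group in MII, where it overlapped TUBGCP2. As for augmin, these orders describe RPKM values only.

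Spindle pole. CKAP5, a microtubule polymerase, rose in MII, and the other tested pole genes, TACC3 and ASPM, did not pass. This 1 higher call among 3 tested rows (33.3%) stands beside 13.4% for all tested genes. CKAP5 (chromosome 15, 77548431 to 77653734; 43 coding exons) was at 66.9, 58.1 and 53.1 RPKM in GV and 209.4, 112.8 and 207.2 RPKM in MII. MII15 was well under the other MII libraries and still above every GV library. The mean rose from 59.4 ± 7.01 to 176.5 ± 55.2 RPKM (log2 difference 1.51 ± 0.27, SE; limma adjusted p = 0.0027), and the call was kept under all 17 alternatives. TACC3, the partner that recruits CKAP5 to the spindle, had the highest level of the 52 rows, at 117.7, 175.4 and 87.6 RPKM in GV and 186.4, 158.6 and 280.6 RPKM in MII. GV14c overlapped the MII range, and the test was not passed (log2 difference 0.73 ± 0.31; limma adjusted p = 0.087). ASPM, which focuses spindle poles, was at 37.1 ± 11.4 and 56.8 ± 16.4 RPKM (limma adjusted p = 0.143). NUMA1, the pole protein that binds dynein, was under 1 RPKM in every library, from 0.063 to 0.924 RPKM in GV and from 0.363 to 0.595 RPKM in MII. It was not tested.

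Other genes of the same pathways were taken from 4 lists of 93 symbols in all, of which 88 are in the table and 69 were tested. Together 25 were higher in MII (36.2%) and 7 lower (10.1%), with a median log2 change of 0.36, beside 13.4%, 26.9% and -0.16 for all tested genes. For centriole assembly 9 of 18 tested genes were higher and 2 lower. For satellites, linker and appendages 6 of 18 were higher and none lower. Of the spindle assembly and pole genes 7 of 27 were higher and 3 lower. In the list for gamma-tubulin and its recruitment 3 of 6 were higher and 2 lower. The higher ones include MAPRE1, a protein of growing microtubule ends. Without MII15c 14 were higher, without GV14 4 were lower, and without both untitled columns 9 were higher and 3 lower.

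STIL, which builds the cartwheel with SASS6, was at 11.2, 7.73 and 10.8 RPKM in GV and 31.0, 35.03 and 33.3 RPKM in MII. Its stages were far apart (log2 difference 1.66 ± 0.25, SE; limma adjusted p = 0.000988). TUBE1 (epsilon-tubulin) and TUBD1 (delta-tubulin), which both stabilise the centriole's microtubule triplets, moved in opposite directions. TUBE1 rose from 47.1 ± 5.72 to 128.3 ± 21.6 RPKM and TUBD1 fell from 43.1 ± 9.09 to 13.5 ± 2.43 RPKM (limma adjusted p = 0.00124 and 0.00165). POC1A, a centriole wall protein, fell from 35.3 ± 23.8 to 6.89 ± 4.91 RPKM (log2 difference -2.24 ± 0.64; limma adjusted p = 0.0212; 0.0631 and 0.07 without GV14 or GV14c, 0.184 with no filter and 0.114 without both untitled columns). PLK4, the kinase that starts duplication and binds CEP152 and CEP192, ranged from 5.10 to 7.33 RPKM in GV and from 2.50 to 8.35 RPKM in MII (adjusted p = 0.742). SASS6 rose from 28.1 ± 2.31 to 74.2 ± 13.9 RPKM and CCP110, the partner of CEP97, from 12.6 ± 2.06 to 33.5 ± 8.31 RPKM (limma adjusted p = 0.00175 and 0.00506). KIAA1731, an older symbol of CEP295, which extends the centriole wall, rose from 12.7 ± 3.90 to 26.6 ± 1.47 RPKM (limma adjusted p = 0.0133; 0.05 and 0.0567 without GV15 or MII15c, 0.124 without both untitled columns). PLK4, SASS6, CCP110 and KIAA1731 were chosen after their values were seen. The 7 tested genes of the centriole assembly list that did not pass were PLK4, CENPJ, SPICE1, CNTROB, POC5, RTTN and OFD1. Their log2 changes were -0.18, -0.32, 0.02, 0.29, 1.24, 0.36 and -0.12 in turn.

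TUBG1, a gamma-tubulin gene, had the largest fall of the lists, from 51.3, 85.5 and 48.3 RPKM in GV to 13.98, 2.30 and 7.04 RPKM in MII. The stages were far apart (log2 difference -3.04 ± 0.50, SE; limma adjusted p = 0.00168). Its near-identical paralog TUBG2, named after its values were seen, was at 67.3 ± 17.3 and 93.6 ± 3.93 RPKM and missed the threshold (adjusted p = 0.119). How reads were shared between these paralogs is not given in the sources used here, so both levels are uncertain. MZT1, a small protein of the ring, rose from 5.18 ± 0.719 to 11.8 ± 1.47 RPKM (limma adjusted p = 0.0141; 0.0522 and 0.0606 without GV15 or MII15c). MAPRE1, a protein of growing microtubule ends, rose from 135.6 ± 21.3 to 246.5 ± 36.8 RPKM (limma adjusted p = 0.0119; 0.062 without MII15c). PDE4DIP (myomegalin), a relative of CDK5RAP2 whose symbol stands on 2 rows, fell from 19.5 ± 8.33 to 4.33 ± 1.25 RPKM (limma adjusted p = 0.00526). That call was lost with no filter (0.0568) and without both untitled columns (0.0777), and without both untitled columns so were those of MZT1 (0.115) and MAPRE1 (0.0607).

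KIAA0753, a satellite protein, rose from 6.15 ± 1.35 to 24.9 ± 6.89 RPKM, and NEK2, the kinase that dissolves the centriole linker, from 15.5 ± 3.65 to 50.0 ± 19.6 RPKM (limma adjusted p = 0.0016 and 0.00404). Among spindle genes, KIF15, a plus-end kinesin, rose from 36.3 ± 2.44 to 85.5 ± 16.6 RPKM (limma adjusted p = 0.0031). PRC1, which bundles antiparallel microtubules, rose from 155.3 ± 45.8 to 408.7 ± 219.2 RPKM (limma adjusted p = 0.0279; 0.0904, 0.0777 and 0.0785 without GV15, MII14c or MII15c). STMN1, a tubulin-sequestering protein whose symbol stands on 2 rows, fell from 189.0 ± 17.2 to 60.4 ± 22.7 RPKM (limma adjusted p = 0.00167). DCTN2, a dynactin subunit, fell from 3.04 ± 0.905 to 0.582 ± 0.895 RPKM (limma adjusted p = 0.0215). That call was lost after quantile normalization (0.15) and without GV14, GV15, MII14c or MII15c (0.0653, 0.0585, 0.0712 and 0.0928). With no filter and without both untitled columns, adjusted p was 0.199 and 0.107 for PRC1 and 0.136 and 0.108 for DCTN2.

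**Figure D4:**
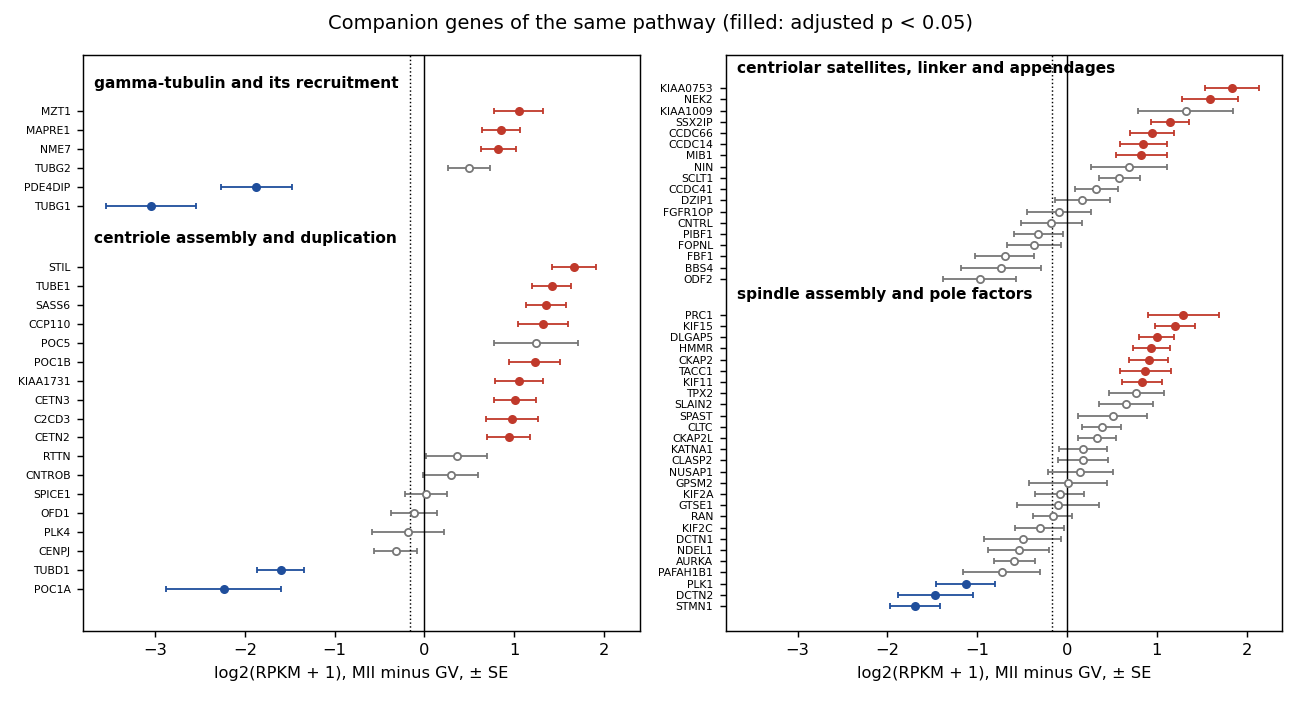
Log2 change from GV to MII with its standard error for the 69 tested genes of the 4 lists of related genes, filled where limma's adjusted p is under 0.05 (red higher, blue lower). The dotted line marks the median of all tested genes; TUBG1 and POC1A lie farthest to the left and KIAA0753 and STIL farthest to the right.

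The centrosomal genes are longer than most, and longer genes were higher in MII across the table. Median coding length was 2373 bases for the 44 tested rows and 1278 bases for all 8469 tested genes with a coding model. Across those 8469 genes Spearman's rho between coding length and log2 change was 0.29, across the 44 rows 0.17 and across the 28 CEP rows 0.21. These are descriptions across genes of the same libraries, not tests. In the longest part of the genes when split in 3 by length, from 1749 bases upward, 17.7% of all genes were higher and 11.8% lower, with a median log2 change of 0.19. The 33 centrosomal rows of that length held 11 higher and 4 lower calls (33.3% and 12.1%), with a median of 0.28. Of the 6 rows of middle length 3 were higher and 1 lower, and of the 5 shortest 1 was higher and 3 were lower. Among all genes of those lengths, 12.8% and 10.2% were higher and 28.8% and 39.9% lower. The part of gene length in the counts of centrosomal calls was not tested further.

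**Figure D5:**
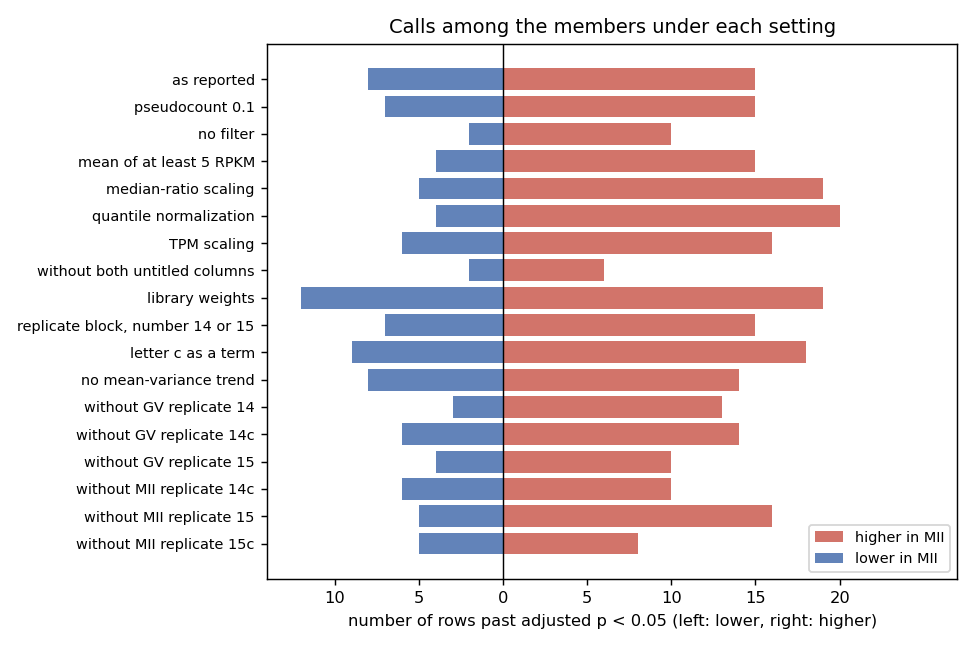
Number of the centrosomal rows called higher (right, red) and lower (left, blue) in MII as reported and under each of the 17 alternatives. Higher calls run from 6 without both untitled columns to 20 after quantile normalization, and lower calls from 2 to 12.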

How the data were processed

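The authors deposited a table of RPKM for 20707 Ensembl genes in 6 libraries, and a second file with gene and coding coordinates (a position, not a measured value), per the file headers. DESeq is listed among the submitters' processing notes without a role. The sources used here do not give the aligner, counting tool, strand setting, filters or genome build. Depth was recovered as the smallest read total that makes low RPKM values of genes modelled by coding sequence alone whole to within 0.1 read (97.2% to 99.5% of values up to 30 reads). The kit amplifies cDNA and adds no molecular identifiers, so depth describes counting error only. No count model was run.

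The 8671 genes whose 6 libraries averaged 1 RPKM or more were tested with limma 3.58.1 in R 4.3.3 (lmFit, eBayes with trend) on log2(RPKM + 1), MII against GV, two-sided, with Benjamini-Hochberg adjustment over all of them and a threshold of 0.05. Fold changes on this scale understate those of low genes. The fit was also run on simulated data with independent noise for each gene. Those data hold no effect shared within a library, so that run does not bear on calls that move with single libraries. Members, roles, lists of related genes and tests were chosen with earlier results of these data known. Roles and lists were assigned from general knowledge, and CEP170 was moved to the appendage group after values were seen. Genes given in full are, in each role group, up to 3 rises and 3 falls of largest size past the threshold and the row of highest mean level. From each list of related genes up to 2 rises and 2 falls of largest size were named. The alternatives were a pseudocount of 0.1, no filter, a mean of at least 5 RPKM, 3 scalings, leaving out each library or both untitled columns, library weights, the library number as a block, the letter c as a term, and no trend. RefSeq's gene table served for names only and held 49 of the 50 symbols. Values of 1 member row are not reported here, and the row is counted in the totals but not drawn.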

Additional observations from a re-analysis of the deposited data

How the results depend on the processing

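Counts of centrosomal rows called in MII moved beyond 1.5 times under these settings. Higher calls, 15 as reported, were 6 without both untitled columns and 8 to 16 when each library was left out. Lower calls, 8 as reported, were 2 with no filter, 4 with a mean of at least 5 RPKM, 5 after median-ratio scaling, 4 after quantile normalization, 2 without both untitled columns and 3 to 6 when each library was left out. With a mean of at least 5 RPKM 34 rows were tested, and the 4 lower rows among them kept their call. The others, CEP41, CEP19, PCNT and the short model of CEP128, averaged less and were not tested. Over all tested genes 1162 were higher as reported, 741 with no filter, 2133 after quantile normalization, 352 without both untitled columns, 2262 with library weights and 585 to 1338 leaving out a library. Lower genes were 2329 as reported, 1280 without both untitled columns and 1719 to 2201 leaving out a library. In the 4 lists of related genes, 25 were higher as reported, 9 without both untitled columns and 14 to 29 leaving out a library, and 7 were lower as reported, 4 with no filter, 3 without both untitled columns, 14 with library weights and 4 to 7 leaving out a library. With the replicate block, the number 14 or 15 of the library name as a term, 15 centrosomal rows were higher and 7 lower, and over all genes 1141 and 2134. The numbers were not shown to pair the libraries. Deviations of GV14c and MII14c correlated at 0.33 and those of GV15 and MII15 at 0.43. Those of GV14 and MII14c correlated at -0.008 and those of GV15 and MII15c at -0.23. Pairs alike in the letter c were all positive, with GV14c and MII15c at 0.26 and GV14 and MII15 at 0.07. Pairs unlike in it were all negative, with GV14 and MII15c at -0.1, GV14c and MII15 at -0.41 and GV15 and MII14c at -0.38. With the letter c as a term, 18 centrosomal rows were higher and 9 lower, and over all genes 1468 and 2975. What c stands for is not given. After quantile normalization higher genes outnumbered lower ones over all tested genes (2133 and 1777). None of the 23 called rows changed direction under the 3 scalings; when libraries are left out, their direction is fixed because the stages do not overlap. Of the 15 higher rows, CEP120, CEP57, CEP76, CEP78, NEDD1 and CKAP5 kept their call under all 17 alternatives, and of the 8 lower rows none did. Of the 21 centrosomal rows that did not pass, 11 gained a call under some alternative.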
